A study of Mus musculus with 6 samples.

Results

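Solute carriers (Slc genes) are membrane proteins that move nutrients, metabolites and ions across the plasma membrane and the membranes of mitochondria, lysosomes, the endoplasmic reticulum and the Golgi. They were examined here in mouse bone marrow cells transfected with a control oligonucleotide or with one that mimics miR-142-3p, a microRNA made mainly by cells of the blood lineages. The platform annotation gives a symbol that starts with Slc and a number to 347 of the 18193 genes measured. Each was read through the brightest of its probe sets, and genes were kept when the mean of its 6 arrays was at least 4 on the deposited log2 scale. This left 92 genes. Slc2a1, Slc3a2, Slc7a1, Slc7a2, Slc7a11 and Slc49a4 were left out by name, and 4 of these 6 were among the 92, so 88 genes are described. The rule reads the mean over both groups and not their difference, but 6 members reach 4 in one group only, so for these the difference bore on membership. The other 255 solute carrier genes lay under a mean of 4 and include Slc7a2 and Slc49a4.

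Solute carriers work by facilitated diffusion down a gradient, by coupling to sodium or protons, or by exchange of one solute for another, without hydrolysing ATP themselves. In myeloid cells they are known for amino acid, glucose and metal supply, for metal removal from phagosomes, for nucleotide-sugar delivery to the Golgi and for the traffic of substrates into mitochondria. Microarrays read the transcript, and transport itself was not measured.

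Both groups came from marrow of healthy C57BL/6 mice, transfected with GeneSilencer and given GM-CSF and IL-6 after 5 h for 4 days, a culture that yields myeloid-derived suppressor cells (MDSCs). The oligonucleotide dose in the labels is 100 nM. The groups differ in the oligonucleotide: 3 arrays received the miR-142-3p mimic and 3 the control oligonucleotide, called CTRL in the labels. The labels name no transgene and no cell sort. Nothing in them says whether the arrays of a group stand for different animals or cultures, and the spread behind each p-value may therefore be technical only. The miR-142-3p sequence that RefSeq lists is shown because it is the one variable of the experiment. The labels do not give the sequence of the mimic itself. It lies on the plus strand at chr11:87756903-87756925 (GRCm38.p6), and the capitals mark its seed, bases 2 to 8.
mmu-miR-142a-3p: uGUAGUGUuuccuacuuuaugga

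Values below are deposited log2 values, differences are mimic minus control with ± SE from limma, and p-values are adjusted by Benjamini-Hochberg over all 18193 genes. A gene is said to have risen or fallen at an adjusted p under 0.05. Correlations between arrays were 0.982 to 0.996 and array medians 0.84 to 0.92. Myeloid markers were bright, with group means of 9.62 (control) and 10.60 (mimic) for Mpo, and of 12.21 and 12.25 for S100a9. Among the 88 genes, control array 1 was the array farthest from the control median in 57, control array 2 in 13 and control array 3 in 18. The counts for mimic arrays 1, 2 and 3 from the mimic median were 22, 32 and 34. Such counts were not made over all genes, so they cannot tell a trait of an array from one of these genes. In a bulk sample, fewer cells of a type and less RNA per cell cannot be told apart.

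With the mimic, 1 of the 88 solute carrier genes rose and 5 fell, and 82 did not pass. The zinc exporter gene Slc30a1 rose. The zinc importer gene Slc39a4, the hexose transporter family gene Slc2a6, the GDP-fucose transporter gene Slc35c1, the taurine transporter gene Slc6a6 and the phosphate transporter gene Slc20a1 fell. The share that passed, 6.82%, stands beside 5.66% of the 6025 genes with a mean of at least 4 and 2.76% of all 18193 genes. It is near the background of genes of such brightness, so the count is not a result about solute carriers as a class. By direction, the higher calls were 2.59% and the lower calls 3.07% of those 6025 genes, and 1.17% and 1.59% of all genes.

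The centre of the class was near that of all genes. The median log2 fold change of the 88 was -0.019, beside -0.015 for the 6025 genes and 0.0091 for all genes tested, with 40 means higher and 48 lower, against 2869 and 3156 of the 6025. The median size of a change was 0.16, beside 0.17 for the 6025. The groups did not overlap in 29 of the 88, or 33.0% (9 higher, 20 lower), beside 38.1% of the 6025 genes (1037 higher, 1258 lower) and 22.2% of all genes (2010 and 2027). For 49 of the 88 the 95% interval of the difference lay within 0.5 on either side of 0. A change of at least 1 was seen in 3 genes, Slc39a4, Slc2a6 and Slc40a1, and the last of these did not pass.

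**Figure D1:**
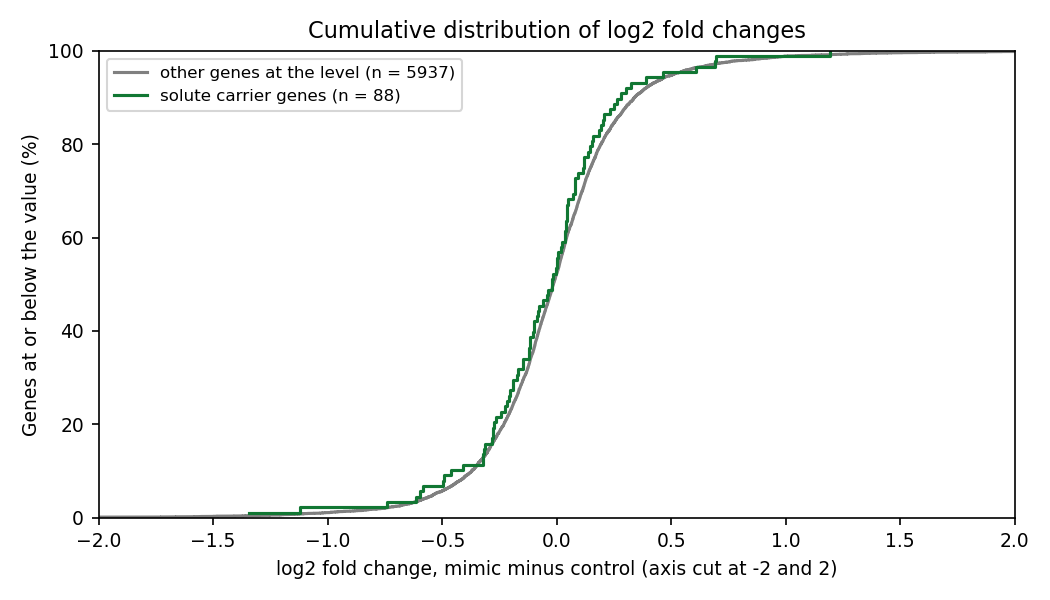
Cumulative share of genes (vertical axis, %) against the log2 fold change, mimic minus control (horizontal axis, ending at -2 and 2), for the 88 solute carrier genes (green) and the 5937 other genes with a mean of at least 4 (grey). The curves cross 50% close to each other, at medians of -0.019 and -0.015.

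Whether a gene passed depended on the arrays in the fit. Each fit with an array left out also has fewer arrays, so a lost call cannot be put down to that array alone. In these fits the difference ran from 0.612 to 0.752 in Slc30a1, from -1.4985 to -1.0995 in Slc39a4 and from -1.291 to -0.924 in Slc2a6. It ran from -0.836 to -0.596 in Slc35c1, from -0.658 to -0.547 in Slc6a6 and from -0.512 to -0.472 in Slc20a1. Without control array 1, Slc39a4, Slc35c1 and Slc20a1 still fell and the iron exporter gene Slc40a1 rose (1 higher, 3 lower), while Slc30a1, Slc2a6 and Slc6a6 missed the threshold (adjusted p = 0.06, 0.0545 and 0.0525 by limma). Without control array 3, all but Slc20a1 (adjusted p = 0.0739) passed, 1 higher and 4 lower. With control array 2 or any one mimic array left out, 0 of the 88 passed, at 19 to 25 genes with an unadjusted p under 0.05 by limma. Over all genes too, fewer passed in every fit with a single array left out than with all arrays. The lost calls are therefore not particular to solute carriers. With arrays centred on their medians 3 members rose and 5 fell (290 and 310 over all genes). After a further quantile normalisation 3 members rose and 6 fell (303 and 335 over all genes).

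**Figure D2:**
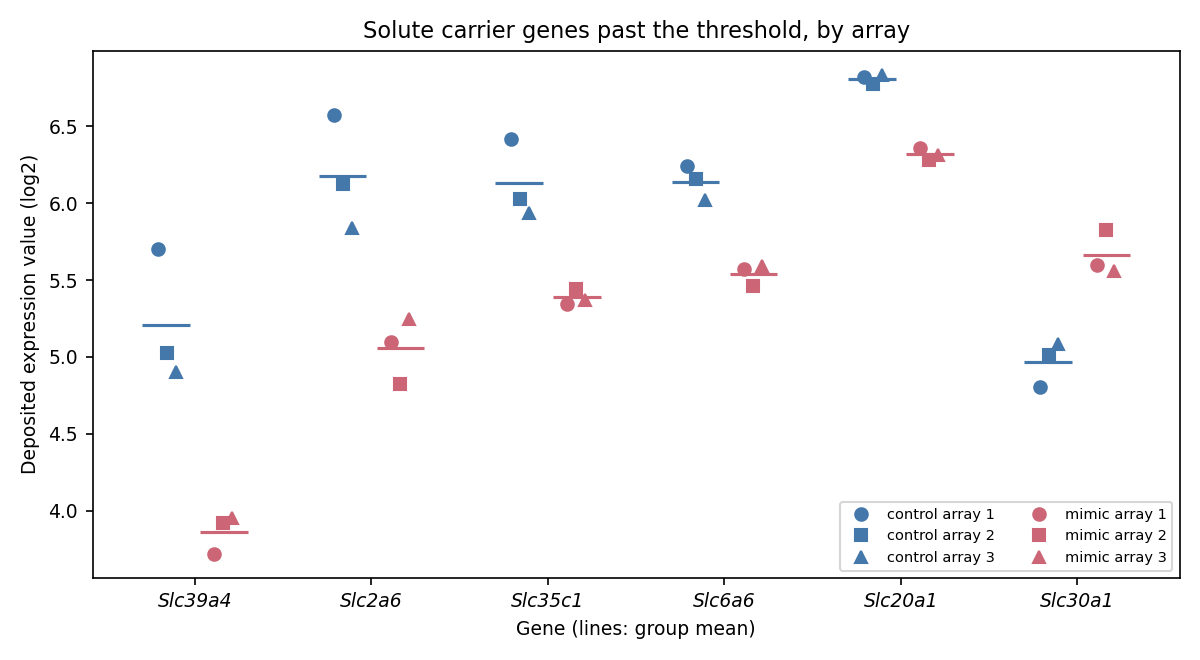
Deposited log2 expression (vertical axis) of the 6 solute carrier genes past the threshold, with 1 point per array (blue control, red mimic; circle, square and triangle for arrays 1, 2 and 3) and a line at each group mean. In each gene the mimic points do not overlap the controls; control array 1 is the highest control in Slc39a4, Slc2a6, Slc35c1 and Slc6a6.

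Metal ion transporters held both the largest called fall and the called rise. Of 18 members 1 rose, 1 fell and 16 did not pass (median log2 fold change 0.029), and for 14 of the 18 the 95% interval lay within 0.5 of 0. Slc39a4 (Entrez gene 72027), which encodes a zinc importer of the plasma membrane known from intestinal zinc uptake, read 5.70, 5.02 and 4.90 in the controls, given here and below in the order of arrays 1, 2 and 3. With the mimic it read 3.72, 3.92 and 3.95. The control arrays were all higher, with array 1 well above the other two. The mean went from 5.21 ± 0.43 to 3.86 ± 0.13 (SD, n = 3), a 2.54-fold difference (-1.35 ± 0.20, adjusted p = 0.0195). Its mean with the mimic lay under 4, so it entered through its control level. Slc7a6, Slc6a13 and Slc25a38 entered in the same way, and Slc39a2 and Slc30a9 through their level with the mimic.

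Slc30a1 (Entrez gene 22782), which encodes the exporter that moves zinc out of the cell, read 4.80, 5.01 and 5.08 in the controls and 5.60, 5.82 and 5.56 with the mimic. Every mimic array was higher than every control. The means were 4.97 ± 0.15 and 5.66 ± 0.14 (SD, n = 3), a 1.62-fold difference (0.69 ± 0.12, adjusted p = 0.0271). A dimmer probe set of the same gene gave 0.73 ± 0.13 (adjusted p = 0.0553 over all probe sets by limma), and in that fit the brighter one had an adjusted p of 0.0511.

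Slc40a1 encodes ferroportin, the only known cellular iron exporter. Its arrays read 4.84, 5.78 and 6.07 in control and 6.63, 6.82 and 6.82 with the mimic. The groups did not overlap, but the controls spread widely, with array 1 lowest. The difference of 1.19 ± 0.28 did not pass (adjusted p = 0.0767); it was 0.83 and passed without control array 1 (adjusted p = 0.0359 by limma), and it was 1.45 without control array 3 (adjusted p = 0.0519). A second probe set gave 0.69. Slc39a2, which encodes another zinc importer, read 3.66, 3.73 and 3.86 in control and 4.51, 4.70 and 4.10 with the mimic. This difference was opposite in direction to that of Slc39a4 and missed the threshold (0.69 ± 0.16, adjusted p = 0.0673).

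The other metal transporters had small differences. Slc11a1, which encodes the phagosomal metal transporter Nramp, was at 6.17 ± 0.10 and 6.40 ± 0.14 (0.23 ± 0.11, adjusted p = 0.343). Slc39a7, a zinc channel gene of the endoplasmic reticulum, was at 6.63 ± 0.12 and 6.45 ± 0.03 (-0.17 ± 0.10, adjusted p = 0.43). The copper transporter genes Slc31a1 and Slc31a2 had differences of -0.12 and 0.024, and the heme transporter gene Slc48a1 one of -0.020, with a second probe set of similar brightness at -0.36 (adjusted p = 0.254 over all probe sets by limma). The zinc transporter genes of the secretory pathway Slc30a5, Slc30a6 and Slc30a7 lay between -0.058 and 0.043, and the zinc importer genes Slc39a1, Slc39a6 and Slc39a9 at 0.035, -0.088 and -0.019.

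Amino acid and peptide transporters had more lower means than higher ones. Of 18 members 1 fell, 0 rose and 17 did not pass, with a median log2 fold change of -0.20. Means were lower in 13 and higher in 5, beside 3156 lower and 2869 higher of the 6025 genes. The groups did not overlap in 7 of the 18 (38.9%, 6 lower and 1 higher). This share is near the 38.1% of the 6025 genes (1258 lower, 1037 higher). Roles were given by family number, and Slc43a3, one of the 5 higher, is known as a carrier of purine nucleobases. Slc6a6 (Entrez gene 21366), the taurine transporter gene, read 6.24, 6.16 and 6.02 in control and 5.57, 5.46 and 5.59 with the mimic. The groups stood apart with little spread within each. Its means were 6.14 ± 0.11 and 5.54 ± 0.07 (SD, n = 3), or 1.51-fold lower (-0.60 ± 0.10, adjusted p = 0.0246). With its 4 probe sets averaged the difference was -0.44, short of the threshold (adjusted p = 0.0836 by limma), and its most variable probe set gave -0.96. The average takes in probe sets near the floor, with means of 0.79 and 0.68.

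The carriers of large neutral amino acids and glutamine stood next to it without passing. Slc7a5, the leucine transporter gene, read 7.24, 6.97 and 6.80 in control and 6.35, 6.55 and 6.36 with the mimic (-0.59 ± 0.13, adjusted p = 0.0658). Slc1a5, the glutamine transporter gene, read 6.13, 5.92 and 5.71 and then 5.44, 5.44 and 5.39 (-0.50 ± 0.12, adjusted p = 0.0793). Slc43a2, a second neutral amino acid transporter gene, read 6.20, 6.01 and 5.83 and then 5.32, 5.70 and 5.18 (-0.62 ± 0.16, adjusted p = 0.0943). In these 3 genes every mimic array was under every control, and control array 1 was the highest of the controls. When only the 6025 genes with a mean of at least 4 were tested all 3 passed (adjusted p = 0.0291, 0.0348 and 0.0431 by limma), as did Slc38a10 (-0.32, adjusted p = 0.0447). In that fit members of other roles passed too: Slc37a2, Slc39a2, Slc40a1 and Slc25a11 (adjusted p = 0.0226, 0.0308, 0.0376 and 0.0294 by limma). The gain was therefore not particular to amino acid transporters. With probe sets averaged none of the 4 amino acid transporter genes passed by limma: Slc7a5 was at -0.59 (adjusted p = 0.0549), Slc43a2 at -0.34 (0.0685), Slc1a5 at -0.28 (0.347) and Slc38a10 at -0.099 (0.628). Slc7a5 has a single probe set, so its difference stayed as it was. The averages of the others take in dim probe sets, with means of 0.35 in Slc43a2, 0.66 in Slc1a5 and 0.52 to 3.16 in Slc38a10. That of Slc43a2 also takes in a probe set with a mean of 4.35, which gave -0.26 (adjusted p = 0.29 over all probe sets by limma). A second probe set of Slc38a10, with a mean of 6.13, gave -0.037, and another, with a mean of 5.60, gave -0.34. With the spike-in level as a covariate Slc43a2 was at -0.17 (adjusted p = 0.957 by limma). The glutamine and alanine transporter genes Slc38a1 and Slc38a2 had differences of -0.19 and -0.11. Of the lysosomal histidine and peptide transporters, Slc15a3 was at 7.64 ± 0.09 and 7.90 ± 0.13 (0.26 ± 0.10, adjusted p = 0.254) and Slc15a4 had a difference of -0.21 (adjusted p = 0.437). The lysosomal amino acid exporter gene Slc36a1 had -0.10, and the plasma membrane exchanger gene Slc7a8 0.080.

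Sugar transporters had 3 means higher and 3 lower. Of 6 members 1 fell, 0 rose and 5 did not pass (median log2 fold change 0.050). Slc2a6 (Entrez gene 227659), a lysosomal member of the glucose transporter family known from activated macrophages, read 6.57, 6.13 and 5.84 in control and 5.10, 4.83 and 5.25 with the mimic. Every mimic array was lower than every control, and control array 1 was the highest. Means were 6.18 ± 0.37 and 5.06 ± 0.21 (SD, n = 3), a 2.17-fold difference (-1.12 ± 0.19, adjusted p = 0.0289). The related gene Slc2a3, a high-affinity glucose transporter gene, lay on the other side, at 6.26, 6.78 and 6.91 in control and 7.19, 7.43 and 7.15 with the mimic. It missed the threshold (0.61 ± 0.18, adjusted p = 0.126), and a second probe set gave 0.67. Slc37a2, a sugar-phosphate exchanger gene of macrophages, read 4.39, 4.21 and 4.20 in control and 4.71, 4.65 and 4.83 with the mimic, also short of the threshold (0.46 ± 0.10, adjusted p = 0.0598). Slc37a4, which brings glucose 6-phosphate into the endoplasmic reticulum, had a difference of -0.014.

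**Figure D3:**
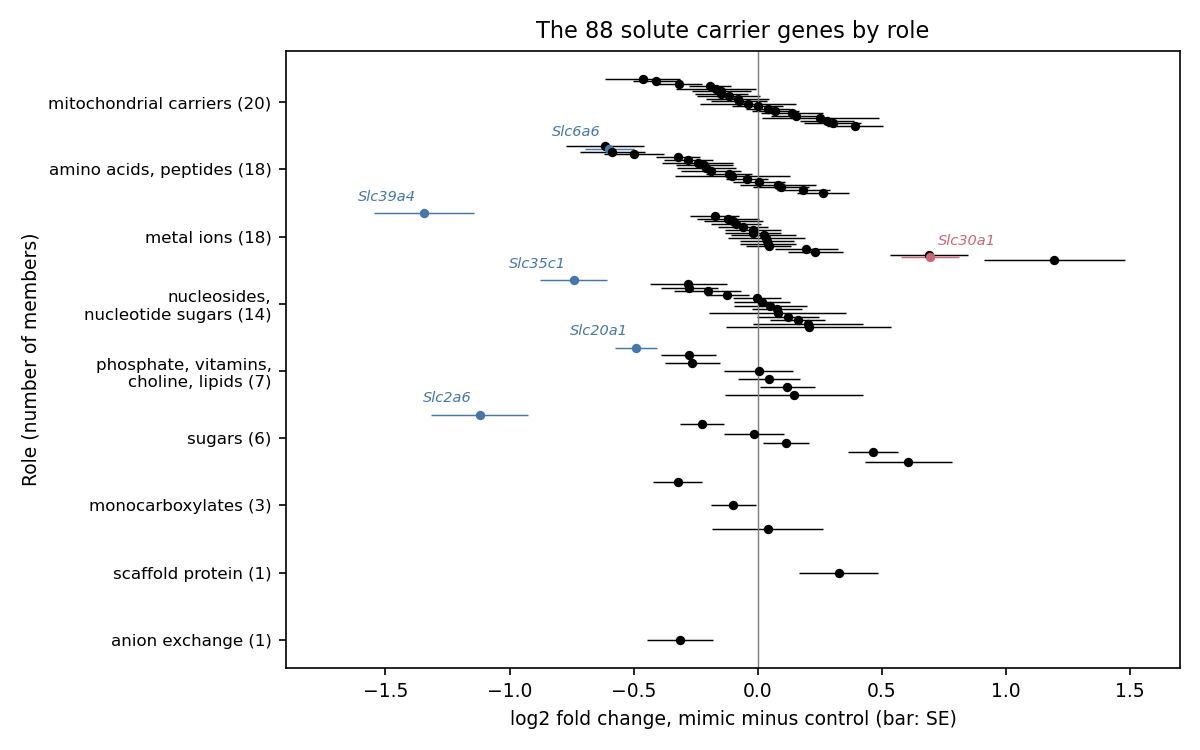
The log2 fold change, mimic minus control (horizontal axis, bar SE), of each of the 88 genes, grouped by role with the number of members (vertical axis). The 5 genes that fell are blue, the 1 that rose is red and the other 82 are black; the 20 mitochondrial carriers lie between -0.46 and 0.39.

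Mitochondrial carriers typically exchange nucleotides, phosphate and metabolites across the inner membrane. Apart from Slc8b1 this role was given by family number, so not every member need be such a carrier. Of 20 members 0 passed by limma, with 6 at an unadjusted p under 0.05, and the range was -0.46 to 0.39 (median -0.058). For 12 of the 20 the 95% interval lay within 0.5 of 0. Slc25a11, the oxoglutarate carrier gene, read 6.23, 6.14 and 6.15 in control and 5.85, 5.64 and 5.80 with the mimic (-0.41 ± 0.10, adjusted p = 0.076). The citrate carrier gene Slc25a1 read 5.45, 5.56 and 5.49 and then 5.30, 5.14 and 5.11 (-0.32 ± 0.09, adjusted p = 0.134). Both were lower in every mimic array. Slc25a20, whose product brings acylcarnitines in for fatty acid oxidation, read 4.92, 5.15 and 5.12 and then 5.40, 5.61 and 5.35 (0.39 ± 0.11, adjusted p = 0.127). Its second probe set, with a mean of 3.72, gave 0.048 (adjusted p = 0.87 over all probe sets by limma). Slc25a38, the glycine carrier gene of heme synthesis, was at 4.43 ± 0.25 and 3.96 ± 0.18 (-0.46 ± 0.15, adjusted p = 0.169), while Slc25a37 and Slc25a28, the mitochondrial iron importer genes, had differences of -0.075 and -0.12. The glutamate carrier gene Slc25a22 was at 4.83 ± 0.06 and 5.13 ± 0.19 (0.30 ± 0.12, adjusted p = 0.236), and Slc25a46, a gene of mitochondrial membrane dynamics, at 5.91 ± 0.17 and 6.19 ± 0.03 (0.28 ± 0.11, adjusted p = 0.247), both without overlap of the groups. A second probe set of Slc25a46, with a mean of 5.44, gave -0.040. The phosphate carrier gene Slc25a3 was at 9.03 ± 0.04 and 9.07 ± 0.07 (0.043 ± 0.09), and the aspartate-glutamate carrier gene Slc25a12 had 0.15.

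The ADP/ATP exchangers depended on the probe set. Slc25a5 stood at 9.88 ± 0.01 and 9.69 ± 0.05 (-0.19 ± 0.08, adjusted p = 0.3), and its 8 probe sets ran from -0.20 to 0.29. Its brightest probe sets, with means of 9.46 to 9.78, lay close together at -0.20 to -0.19. Dimmer ones differed: -0.020 at a mean of 7.48, and 0.15 to 0.29 at means of 5.42 to 6.22. Slc25a4 had -0.081 in the probe set used, while 2 slightly dimmer ones gave -0.49 each (adjusted p = 0.0645 and 0.0641 over all probe sets by limma). Across the class 21 genes had several probe sets with a mean of at least 4. All of them had the same sign in 14 genes and both signs in 7, and in 9 genes one lay more than 0.25 from the probe set used. Of these 9, the direction was the same in each such probe set in Slc25a4, Slc38a10, Slc40a1, Slc43a2 and Slc48a1, and it differed in Slc19a1, Slc25a5, Slc25a46 and Slc9a3r1.

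Nucleoside and nucleotide-sugar transporters gave 1 fall and 0 rises in 14 members (median log2 fold change 0.034). Slc35c1 (Entrez gene 228368) brings GDP-fucose into the Golgi, and its loss in people causes a leukocyte adhesion deficiency through missing selectin ligands. It read 6.42, 6.03 and 5.94 in control and 5.35, 5.44 and 5.37 with the mimic. The mimic arrays lay close together and under every control. The means were 6.13 ± 0.25 and 5.39 ± 0.05 (SD, n = 3), 1.67-fold lower (-0.74 ± 0.14, adjusted p = 0.0327). In the fit of all probe sets it did not pass (adjusted p = 0.0626 by limma), nor did Slc2a6 (adjusted p = 0.0569). Slc35b1, a carrier gene of the endoplasmic reticulum, was at 6.50 ± 0.14 and 6.23 ± 0.14 (-0.28 ± 0.12, adjusted p = 0.284). The nucleoside transporter genes Slc29a1 and Slc29a3 had differences of -0.20 and 0.017. The carrier genes of UDP-galactose, Slc35a2, and of the sulfate donor PAPS, Slc35b2 and Slc35b3, had 0.20, 0.051 and 0.12, and Slc35c2, a relative of Slc35c1, had -0.28 ± 0.16 (adjusted p = 0.426).

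Among 7 transporters of phosphate, vitamins, choline and lipids 1 fell and 0 rose (median log2 fold change 0.0031). Slc20a1 (Entrez gene 20515), the sodium-dependent phosphate importer gene, read 6.82, 6.77 and 6.83 in control and 6.36, 6.28 and 6.32 with the mimic. This was the tightest pair of groups among the 6 genes that passed, with means of 6.81 ± 0.03 and 6.32 ± 0.04 (SD, n = 3), 1.41-fold lower (-0.49 ± 0.08, adjusted p = 0.0281). Averaged with its 2 probe sets near the floor, both under a mean of 0.5, the difference was -0.23, short of the threshold (adjusted p = 0.247 by limma). The vitamin C transporter gene Slc23a2 had -0.28 ± 0.11 (adjusted p = 0.251), the fatty acid transporter gene Slc27a4 -0.26 ± 0.11 (adjusted p = 0.279), the folate transporter gene Slc19a1 0.12 and the choline transporter gene Slc44a2 0.0031 ± 0.14.

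The remaining members were few. Of 3 monocarboxylate transporters 0 passed by limma, with 1 at an unadjusted p under 0.05. This was the lactate exporter gene Slc16a3, at 4.66, 4.52 and 4.53 in control and 4.11, 4.29 and 4.34 with the mimic (-0.32 ± 0.10, adjusted p = 0.148). Slc16a1, the lactate and pyruvate transporter gene, was at 5.75 ± 0.09 and 5.65 ± 0.03 (-0.099 ± 0.09). The chloride-bicarbonate exchanger gene Slc4a2 had -0.31 ± 0.13 (adjusted p = 0.286). Slc9a3r1 is a scaffold protein gene that carries an exchanger's name and is no transporter (0.33 ± 0.16, adjusted p = 0.357).

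**Figure D4:**
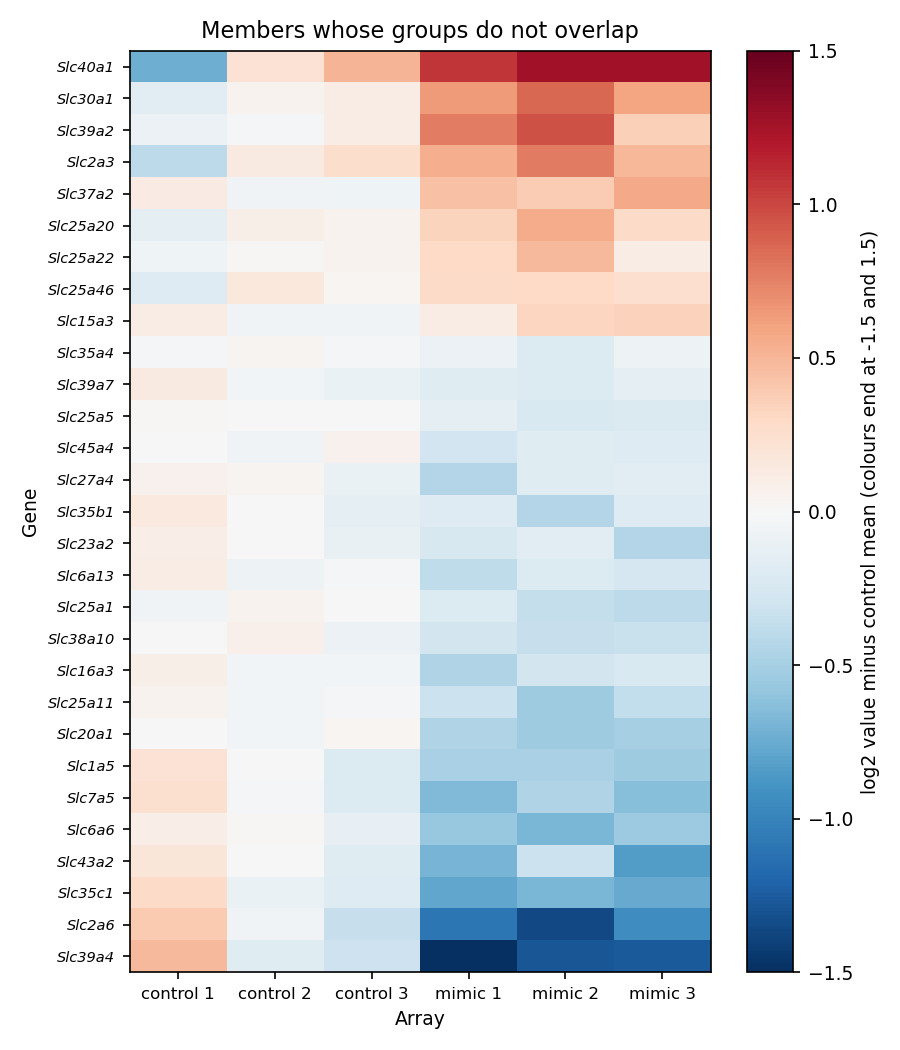
The 29 solute carrier genes whose groups do not overlap (rows) in the 6 arrays (columns), as the log2 value minus the control mean (colours end at -1.5 and 1.5). The 9 genes above are higher and the 20 below lower with the mimic, and control array 1 departs from the other controls in Slc40a1, Slc2a3, Slc2a6 and Slc39a4.

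Just inside the level of 4 stood Slc39a2 (mean 4.09), Slc7a6 (4.04) and Slc30a9 (4.01). Just outside stood Slc35f5 (3.97), Slc16a10 (3.95) and Slc25a33 (3.95), with log2 fold changes of 0.14, 0.22 and -0.079.

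Other membrane transport genes, from lists of ABC transporters, ion-pumping ATPases and other carriers and channels, were read in the same fit. The lists hold genes on both sides of a mean of 4 (7 of 20, 9 of 12 and 18 of 27 at or above it), so their counts stand between backgrounds of 2.76% of all genes and 5.66% of genes at that level. Of 20 ABC transporter genes 2 fell and 0 rose (median log2 fold change -0.042): the cholesterol exporter gene Abca1, at 4.36 in control and 2.44 with the mimic (-1.93 ± 0.27, adjusted p = 0.016), and the drug and leukotriene exporter gene Abcc1 (-0.68 ± 0.11, adjusted p = 0.0246). Of 12 ATPase genes 0 passed by limma, with 3 at an unadjusted p under 0.05 (median -0.093), and the largest change was that of Atp13a2, a lysosomal polyamine pump gene (-0.49 ± 0.12, adjusted p = 0.0818). Of 27 other carriers and channels 1 rose and 2 fell (median -0.093). The lysophospholipid transporter gene Mfsd2a fell (-1.05 ± 0.12, adjusted p = 0.00859) at a dim level, Slco4a1, an organic anion transporter gene, rose (0.85 ± 0.13, adjusted p = 0.0196), and the lysosomal lipid transporter gene Spns1 fell (-0.52 ± 0.11, adjusted p = 0.0489). Without control array 1 the 3 lists together gave 1 rise and 1 fall, without control array 3 they gave 1 and 3, without mimic array 2 they gave 0 and 1, and without any other array 0 and 0.

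Markers of other cell types moved between the same groups, and their part in the solute carrier differences was not tested. The backgrounds for their counts are again 2.76% of all genes and 5.66% of genes at a mean of at least 4, and among these lists are genes on both sides of that level. Dendritic cell markers were lower (Ccl17, Ccl22, Ccr7, H2-Ab1 and Itgax, 5 of 13, fell and 0 rose), with a summed log2 level of 49.3 to 60.2 in control and 36.0 to 37.0 with the mimic, and Xcr1 and Cd209a had means under 1. Neutrophil precursor markers were higher (Ctsg and Elane, 2 of 7, rose), at 51.2 to 57.7 and 62.1 to 62.5. Mast cell and basophil markers gave 2 rises in 9 (33.5 to 39.0 and 42.7 to 43.2, Tpsb2 under 1), eosinophil markers 1 rise in 6 (15.1 to 18.6 and 20.6 to 20.8, Ccr3 and Il5ra under 1), and macrophage markers 1 rise and 2 falls in 13 (62.5 to 63.4 and 61.5 to 61.8), with Cd163, Timd4 and Vsig4 under 1. Mature neutrophil markers gave 1 fall in 8 (67.7 to 69.7 and 67.7 to 69.1), B cell markers 1 fall in 6 (16.5 to 17.1 and 14.1 to 14.99), with Ebf1 and Vpreb1 under 1, and erythroid markers 1 rise in 8 (8.47 to 9.34 and 10.2 to 10.6), with Hba-a1, Alas2, Epb42 and Rhag under 1. T and NK cell markers (5 genes, 6.50 to 6.85 and 6.91 to 7.10, Ncr1 under 1) gave 0 calls with 0 at an unadjusted p under 0.05 by limma, and megakaryocyte markers (5 genes, 28.9 to 30.9 and 31.3 to 32.9) gave 0 calls with 4 at an unadjusted p under 0.05. The marker lists together held 7 rises and 9 falls. These were 8 and 9 without control array 1, 7 and 8 without control array 3, 0 and 2 without mimic array 2, and 0 and 0 with any one of the other arrays left out.

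Start-site sequence was available for 68 of the 88 genes, taken from RefSeq (GRCm38.p6) as 250 bases before to 50 after each start. Of the 6 genes that passed, Slc39a4 and Slc6a6 had no entry. The windows were searched on both strands for 6 motifs. The shares given for all genes take in genes of any level, while the members have a mean of at least 4. They are therefore not a matched background. The metal response element core TGCACNC was found in 14 of the 68 (20.6%) and in 14.2% of all genes with such windows, and the E-box CACGTG in 13 (19.1%) and 8.09%. The lysosomal gene motif TCACGTGA, which contains the E-box, was found in 3 (4.41%) and 1.12%, an NF-kB motif in 2 (2.94%) and 1.89%, an interferon-stimulated response motif in 1 (1.47%) and 3.99%, and the amino acid response motif TGATGNAAT in 0 and 1.08%. The matches in genes that passed are shown with the motif in capitals, in the direction of the gene, since they lie at the genes with a measured difference. In Slc30a1 (chr1:191906727-191906756, plus strand) the metal response core reads on the opposite strand, in Slc35c1 (chr2:92460469-92460498, minus strand) it reads with the gene, and Slc20a1 has an E-box in each of 2 places (chr2:129198586-129198615 and chr2:129198739-129198768, plus strand). A match describes letters in the window and was not tested for binding.
Slc30a1: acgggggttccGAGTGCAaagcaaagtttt
Slc35c1: gggtggtgctgcaggTGCACCCgagggcac
Slc20a1, first: gccagccagtccCACGTGgaccagctcctc
Slc20a1, second: ggctcggcaggtCACGTGgggcgcagaacc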

How the data were processed

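RNA of 6 samples was measured on Affymetrix MOE430 2.0 arrays. The authors deposited 1 log2 value per probe set and array; the submitters' processing notes name RMA and affy without versions, and the log base was taken from the values. The sources used here give neither centring nor floor. Values were used as deposited. Of 45101 probe sets, 34945 carry 1 symbol, and each of 18193 genes was read through its brightest probe set. Groups follow the labelled treatment. The test was limma's (version 3.58.1, run under R 4.3.3; lmFit and eBayes, two-sided, 6 arrays, no covariate), with Benjamini-Hochberg adjustment over all genes at 0.05. The fit was tested on simulated data with independent noise in each gene and array, so deviations shared across an array were not covered.

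The members and lists were chosen with earlier results of these data known. Roles were assigned by family number, with Slc9a3r1 and Slc8b1 placed singly. Named are members past the threshold, in each role the member with the highest mean and the one with the largest change, and the 3 genes on each side of the level. Of the other lists, up to 2 called genes or the largest change are named. Other genes named were chosen after their values were seen. Alternatives were other scalings, filters, probe set choices, variance models, array weights, a spike-in covariate, a replicate block, other levels and each array left out. The titles number arrays 1 to 3 in each group. The number of arrays limits the precision.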

Additional observations from a re-analysis of the deposited data

How the results depend on the processing

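No sign change was seen in a called gene in any fit tried. The number of solute carrier genes higher and lower was 3 and 5 with centred arrays, 3 and 6 after quantile normalisation, 4 and 10 with only genes of a mean of at least 4 tested (fewer genes to adjust over), 3 and 9 with a trended robust variance and 4 and 9 with array weights. It was 2 and 3 with probe sets averaged, 0 and 3 with all probe sets tested, 1 and 3 with the most variable probe set, and 1 and 7 or 1 and 4 for members at a mean of at least 3 or 5. With the spike-in level as a covariate it was 0 and 0, with 13 at an unadjusted p under 0.05 by limma, and over all genes 0 and 0, with 1178. Dropping control array 1 together with mimic array 3, an alternative added after the data were seen, gave 0 and 0, with 24 such genes, and over all genes 0 and 0 with 3255. Over all genes, 213 rose and 290 fell, against 104 and 160 with all probe sets tested, 320 and 429 with the trended variance, and 456 and 591 with array weights. The median of the solute carrier genes moved from -0.019 to -0.051, -0.048 and -0.053 with averaged probe sets, array weights and both arrays left out, and was 0.0015 after quantile normalisation. With the replicate block, 0 solute carrier genes rose and 2 fell, and 126 and 188 genes did so overall. Deviations from the group means correlated at -0.10, 0.25 and -0.19 between same-numbered arrays 1, 2 and 3. Pairs of unlike number ran from -0.29 to 0.32. With 3 arrays in a group, these values cannot show whether same-numbered arrays belong together. With single arrays left out, solute carrier genes ran from 0 to 1 higher and 0 to 4 lower, all genes from 0 to 165 higher and 0 to 248 lower, the median from -0.070 to -0.023, other transport genes from 0 to 1 higher and 0 to 3 lower, and cell type markers from 0 to 8 higher and 0 to 9 lower. The causes were not tested.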

Other observations

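Zinc handling was looked at beyond the solute carriers because Slc39a4 and Slc30a1 passed in opposite directions. The genes were chosen after the values were seen. The metallothionein genes Mt1 and Mt2, whose products bind zinc and are switched on by it, were both lower in every mimic array without passing. The groups did not overlap in 38.1% of the 6025 genes with a mean of at least 4 either, so this says little about zinc handling. Mt1 was at 8.78 ± 0.29 in control and 8.35 ± 0.10 with the mimic (-0.44 ± 0.15, adjusted p = 0.191 by limma), and Mt2 at 6.61 ± 0.05 and 6.30 ± 0.07 (-0.31 ± 0.09, adjusted p = 0.123). Mtf1, the gene of the zinc-sensing transcription factor, had -0.12 ± 0.23 (adjusted p = 0.856).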
